A study of Mus musculus with 6 samples.

Results

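Chemokines are small secreted proteins that steer leukocytes by binding G protein-coupled receptors on their surface, and the spacing of the first cysteines divides them into CC, CXC, CX3C and XC families. In liver they are made by hepatocytes, Kupffer cells, endothelial and stellate cells, and they are known for recruiting monocytes, neutrophils and lymphocytes to injured tissue. Atypical receptors bind chemokines without the usual G protein signal and remove or present them. The genes described here are those of the deposited table whose symbol begins with Ccl, Cxcl, Cx3cl, Xcl, Ccr, Cxcr, Cx3cr or Ackr followed by a digit. The rule found 61 of 28450 genes, 39 ligands and 22 receptors, and it did not use the measured values.

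RNA was sequenced from the livers of 3 Acsm3 knockout mice and 3 wild-type controls, all of them male, 12 weeks old and kept on a normal diet. The product of Acsm3 is a mitochondrial enzyme that activates medium-chain fatty acids. Each mouse gave 1 poly(A)-selected library, and expression is given as FPKM, a count of fragments divided by the length of the gene and the depth of the library. The sources used here do not give the strain, the tissues in which Acsm3 was disrupted or whether controls were littermates.

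Acsm3 lay between 32.2 and 34.4 FPKM in controls and between 0.668 and 2.92 FPKM in knockouts. The steps between low values implied 15300000 to 16300000 fragments per library, so that 1 FPKM over 1 kb rests on 15.3 to 16.3 fragments. Fragment numbers below are recovered with these totals. Differences are log2 fold changes of FPKM + 1, knockout minus control, ± the standard error moderated by limma. They understate the change of low genes. The median over all 10996 genes tested was 0.13, and median-ratio rescaling of the libraries brought it to -0.00091.

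Of the 61 genes, 60 were above 0 in at least 1 mouse and 37 in all 6 mice. Only 15 had a 6-mouse mean of 1 FPKM or more and were tested. A further 30 had means of 0.1 to 1 FPKM, and 16 lay below 0.1 FPKM. Among the 15 tested, 12 rose and 1 fell in knockouts (adjusted p at most 0.05), where 13.9% of all tested genes rose and 2.61% fell. Their median log2 fold change was 1.03. Genes such as Ccl2, Ccl5, Ccr2 and Cx3cr1 had control means under 1 FPKM, and Cxcl13 a knockout mean under 1 FPKM. These reached the filter only through the group in which they were high, so the count and the median describe the tested genes and not all 61. The 3 knockout values lay wholly above the 3 control values in 27 of the 61 genes and wholly below them in 2. Among all genes averaging 1 FPKM or more the groups separated upwards in 33.9% and downwards in 7.91%, and among genes of 0.1 to 1 FPKM in 23.3% and 2.81%. For the chemokine genes these numbers were 12 and 2 of 15 tested and 13 and 0 of the 30 with means of 0.1 to 1 FPKM. After median-ratio rescaling 11 of the tested genes rose and 1 fell, against 7.57% and 6.7% of all genes. With the filter lowered to 0.1 FPKM, 13 of 45 were called higher and 1 lower, against 7.34% and 1.31% of all genes, among them 4 of the 30 with lower means. Voom, a model of counts, on the recovered fragments called 17 of 31 higher and 1 lower, against 16.6% and 2.47% of all genes. At these filters too some genes entered only through their knockout values, Ccr1 and Ccl22 by FPKM and Ccr1, Cxcl2 and Ackr1 by fragments, so these counts describe the genes tested.

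**Figure D1:**
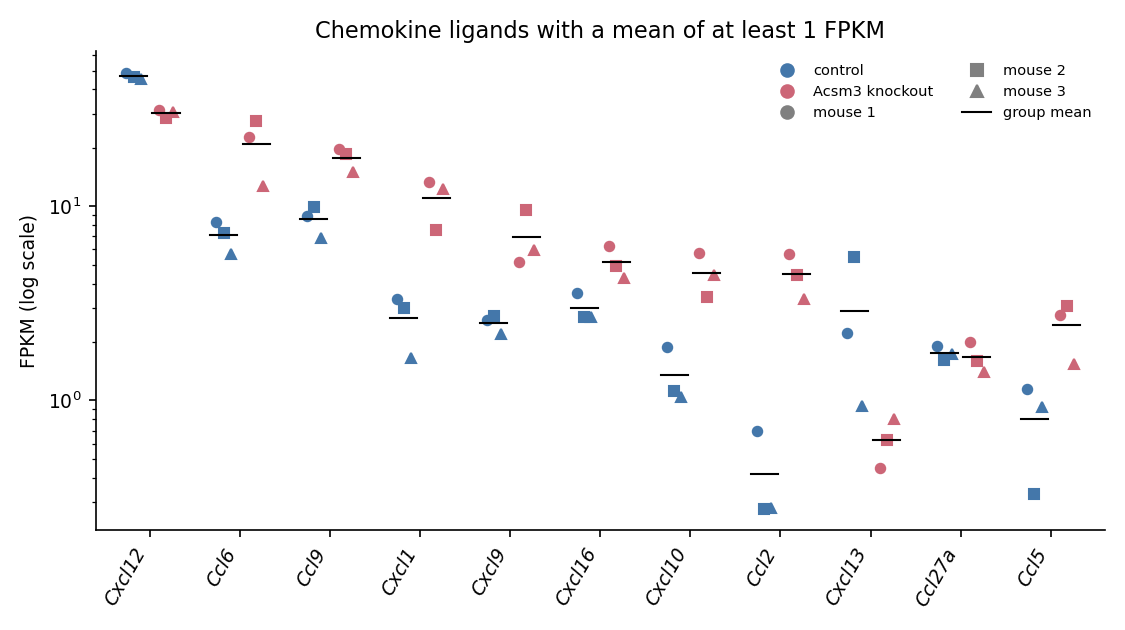
FPKM in each mouse (log axis) of the 11 chemokine ligands averaging 1 FPKM or more, with controls in blue, knockouts in red, a marker shape for each mouse number (which does not pair mice) and a line at each group mean (n = 3). Cxcl12 at 28.6 to 48.9 FPKM is the most abundant and is lower in every knockout, Ccl27a overlaps between groups, and 8 ligands are higher in every knockout than in any control.

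The RefSeq sequences of the 250 bases before the RefSeq start (GRCm38.p6) are shown for the neutrophil chemokines Cxcl1, Cxcl2 and Cxcl3, which lie in 1 gene cluster and were detected to very different extents, for the interferon-induced Cxcl10, and for Cxcl12, the ligand that fell. They are written 5′ to 3′ on the gene's strand, and capitals mark matches on either strand to an NF-kB motif (GGG and TTTCC with any 2 bases between them), an interferon response motif (TTTC and TTTC with any 2 bases between them) or an AP-1 motif (TGANTCA, N being any base). The windows are chr5:90890995-90891244 on the plus strand (Cxcl1), chr5:90903649-90903898 on the plus strand (Cxcl2), chr5:90785851-90786100 on the plus strand (Cxcl3), chr5:92348890-92349139 on the minus strand (Cxcl10) and chr6:117168285-117168534 on the plus strand (Cxcl12).
Cxcl1: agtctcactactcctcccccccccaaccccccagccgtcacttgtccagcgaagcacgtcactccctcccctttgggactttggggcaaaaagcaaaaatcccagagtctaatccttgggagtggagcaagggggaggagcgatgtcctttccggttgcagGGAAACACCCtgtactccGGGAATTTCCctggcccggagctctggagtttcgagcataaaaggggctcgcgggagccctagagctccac
Cxcl2: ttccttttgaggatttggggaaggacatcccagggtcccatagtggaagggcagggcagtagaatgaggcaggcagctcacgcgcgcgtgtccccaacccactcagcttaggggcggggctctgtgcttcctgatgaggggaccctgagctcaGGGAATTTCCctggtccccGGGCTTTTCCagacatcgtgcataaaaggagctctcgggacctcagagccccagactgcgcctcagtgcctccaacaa
Cxcl3: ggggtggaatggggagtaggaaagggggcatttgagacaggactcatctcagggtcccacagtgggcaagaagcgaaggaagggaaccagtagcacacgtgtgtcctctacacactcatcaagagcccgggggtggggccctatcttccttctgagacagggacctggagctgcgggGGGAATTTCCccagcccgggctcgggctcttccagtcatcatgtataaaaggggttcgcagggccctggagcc
Cxcl10: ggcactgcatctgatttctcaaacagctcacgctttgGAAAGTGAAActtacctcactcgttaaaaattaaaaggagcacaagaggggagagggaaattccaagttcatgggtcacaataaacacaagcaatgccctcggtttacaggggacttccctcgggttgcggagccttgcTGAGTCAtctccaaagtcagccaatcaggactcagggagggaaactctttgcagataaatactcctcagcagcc
Cxcl12: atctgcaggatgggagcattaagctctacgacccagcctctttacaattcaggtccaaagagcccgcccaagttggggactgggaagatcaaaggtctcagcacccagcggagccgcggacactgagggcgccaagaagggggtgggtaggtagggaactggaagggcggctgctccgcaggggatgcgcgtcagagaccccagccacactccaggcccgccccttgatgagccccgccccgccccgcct
The letters GGGAATTTCC stand 71 bases before the start of Cxcl1, 97 before that of Cxcl2 and 73 before that of Cxcl3. The NF-kB motif was found in 6 of 44 chemokine and receptor genes with a promoter entry (Ccl9, Ccl20, Ccr3, Cxcl1, Cxcl2 and Cxcl3), that is in 11.8% of their 51 entries and in 1.41% of all 32851 entries. The interferon response motif was found in Ccl19, Cxcl10 and Cxcl14 (5.88% of their entries, 2.98% of all), and the AP-1 motif in Ccl9, Ccl27a, Ccl27b, Ccr3, Ccr4 and Cxcl10 (11.8% and 6.75%). In these genes no match overlapped another, and none was found in the window of Cxcl12. Only these exact letters were searched, so a window without a match may still hold a site. The Cxcl10 window holds gggaaattcc and ggggacttcc, which are close to the NF-kB motif but do not match it. Genes that share a motif differed in level, since Cxcl1 was at up to 13.3 FPKM while Cxcl3 and Ccl20 were at or near 0 in every liver.

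The neutrophil chemokine Cxcl1, which acts through Cxcr2, rose in the knockouts. In controls 1, 2 and 3 it measured 3.33, 2.998 and 1.66 FPKM, against 13.3, 7.60 and 12.3 FPKM in knockouts 1, 2 and 3, the order used for all genes here. The lowest knockout value was above every control value, with a log2 fold change of 1.72 ± 0.25 (limma, adjusted p = 0.0129), a 4.16-fold difference of mean FPKM. Cxcl1 kept its call with each mouse left out. Cxcl2, a close paralog with the same receptor, was far lower, at 0.0888, 0.183 and 0.0308 FPKM in control livers (3, 6 and 1 fragments) against 0.993, 0.411 and 0.777 FPKM in knockouts (32, 13 and 26 fragments). Its groups did not overlap. Cxcl2 was not tested at the filter of 1 FPKM, and it passed with the filter at 0.1 FPKM (limma, adjusted p = 0.0421) and in voom on the recovered fragments (adjusted p = 0.0211). Cxcl5, another ligand of this group, had 4, 0 and 1 fragments in controls and 18, 4 and 9 in knockouts (adjusted p = 0.152 with limma at the filter of 0.1 FPKM). Cxcl3 had 3 fragments in knockout 1 and 0 in the other 5 livers. The receptor Cxcr2 was at 0.0824 ± 0.0363 FPKM in control livers against 0.203 ± 0.0713 FPKM in knockouts (SD, n = 3), and its groups overlapped by a narrow margin, with 0.124 FPKM in control 2 and 0.122 FPKM in knockout 3. Cxcr1, the related receptor, overlapped widely, at 0.127 to 0.287 and 0.124 to 0.351 FPKM. Of the other neutrophil markers 3 of 4 tested rose, against 13.9% of all tested genes (1 after median-ratio rescaling, against 7.57%). They were S100a8 (0.79 ± 0.17), Retnlg (1.22 ± 0.25) and Csf3r (0.68 ± 0.16) (limma, adjusted p from 0.0256 to 0.0357). These 3 were at no more than 0.770 FPKM in any control. They reached the filter only through their knockout values, so this count describes the genes tested. The remaining one, S100a9, was the most abundant and was not called (0.86 ± 0.42, limma, adjusted p = 0.191). Its groups overlapped, with 1.76 FPKM in control 1 and 1.07 FPKM in knockout 3. Ly6g was listed at 0 in every library, and Mpo, Elane and Camp were at no more than 0.266 FPKM. These 11 markers summed to 1.94 to 3.26 FPKM in control livers against 4.40 to 11.7 FPKM in knockouts. Their part in the chemokine values was not tested. In bulk tissue, fewer or more cells of a type and less or more RNA per cell cannot be told apart.

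Cxcl9 and Cxcl10, which interferon gamma induces and which attract T and NK cells through Cxcr3, rose, while their neighbour Cxcl11 did not separate. Cxcl9 was at 2.60, 2.72 and 2.19 FPKM in control livers against 5.17, 9.58 and 5.99 FPKM in knockouts, with knockout 2 the highest. The groups did not overlap, with a log2 fold change of 1.14 ± 0.20 (limma, adjusted p = 0.0187). Cxcl10 was at 1.87, 1.12 and 1.046 FPKM in control livers against 5.73, 3.40 and 4.42 FPKM in knockouts. Here knockout 1 was the highest and the groups again did not overlap (1.23 ± 0.19, limma, adjusted p = 0.0148, 3.35-fold). Cxcl9 did not pass without control 1, 2 or 3 (adjusted p = 0.0512, 0.0593 and 0.0681), and Cxcl10 did not pass without control 2 or 3 (adjusted p = 0.0578 and 0.0573). Cxcl11 was at 0.539 ± 0.19 FPKM in control livers against 0.479 ± 0.191 FPKM in knockouts, with knockout 2 the lowest of the 6 livers at 0.258 FPKM. A pseudogene on the opposite strand covers 1582 of the 3794 exon bases of Cxcl11, Art3 covers 133 of 2252 of Cxcl10 and Zmynd15 covers 552 of 3021 of Cxcl16, likewise on the opposite strand. The sources used here do not say if reads kept their strand. The receptor Cxcr3 was at 0.241 ± 0.0543 and 0.357 ± 0.0967 FPKM, with overlapping groups. T cell markers summed to 6.24 to 7.19 FPKM in control livers against 6.55 to 9.64 FPKM in knockouts. Of 16, 1 had a mean of at least 1 FPKM, namely the kinase gene Zap70, which fell (-0.55 ± 0.12, limma, adjusted p = 0.0284). The other 15 summed to 2.46 to 3.51 FPKM in control livers against 3.91 to 7.76 FPKM in knockouts. In 4 of these 15 (Cd4, Cd28, Il7r and Lat) every knockout was above every control, and the rest overlapped. This share is near the 23.3% of all genes of 0.1 to 1 FPKM that separated upwards. Lat separated by a narrow margin, with 0.177 FPKM in control 1 and 0.179 FPKM in knockout 3. Cd3e, a gene of the T cell receptor complex, lay between 0.0300 and 0.272 FPKM in all livers. NK cell markers summed to 1.06 to 1.88 and 1.38 to 3.37 FPKM, and 0 of 10 reached the filter. The part of these cells in the Cxcl9 and Cxcl10 values was not tested.

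Ccl2, the main attractant of blood monocytes, and its receptor Ccr2 both rose. Ccl2 was at 0.699, 0.277 and 0.280 FPKM in control livers (13, 5 and 5 fragments) against 5.70, 4.42 and 3.31 FPKM in knockouts (101, 77 and 61 fragments). Every knockout lay well above every control, at a log2 fold change of 1.94 ± 0.19 (limma, adjusted p = 0.00566) and a 10.7-fold difference of mean FPKM. Ccr2, which marks classical monocytes, was at 0.371, 0.346 and 0.348 FPKM in control livers against 2.04, 2.10 and 1.43 FPKM in knockouts. The controls lay close together and apart from the knockouts, of which knockout 3 was the lowest (1.07 ± 0.13, limma, adjusted p = 0.00807, 5.23-fold). Ccl7, a further ligand of Ccr2, had 2, 1 and 0 fragments in controls and 16, 23 and 3 in knockouts, a ratio of 14.2 with an exact 95% interval of 4.55 to 71.9 that covers counting error only. Between mice it was not called by limma with the filter at 0.1 FPKM (adjusted p = 0.0996). Ccl8 and Ccl12 had at most 7 and 2 fragments in any liver. Ccl2 kept its call with each mouse left out, and Ccr2 did in each such fit in which its mean was at least 1 FPKM.

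**Figure D2:**
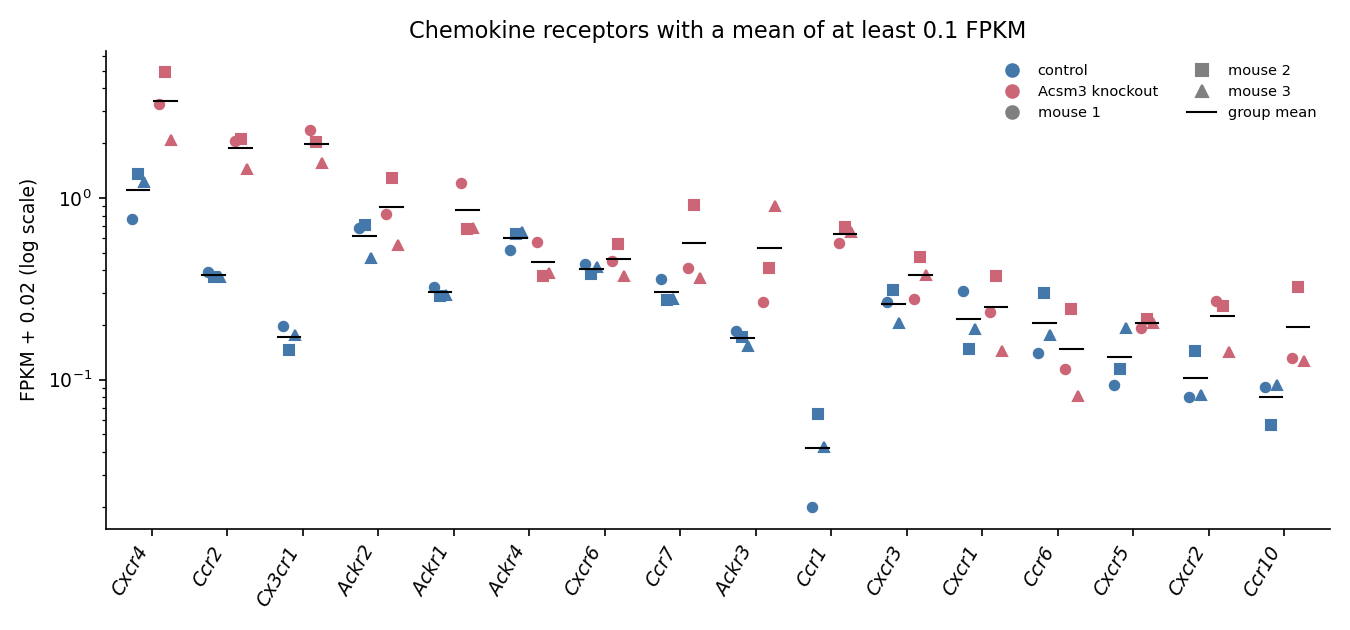
FPKM + 0.02 in each mouse (log axis) of 16 chemokine receptors averaging 0.1 FPKM or more, with controls in blue, knockouts in red, marker shapes for the mouse numbers and a line at each group mean (n = 3). Cxcr4, Ccr2 and Cx3cr1 are higher in every knockout, Ccr1 is at 0 to 0.0446 FPKM in control livers against 0.544 to 0.669 FPKM in knockouts, and Cxcr6 overlaps between groups.

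The fractalkine receptor Cx3cr1, a gene of monocytes and of some macrophages, had the largest ratio of mean FPKM among the 15 tested genes (12.9-fold). It was at 0.177, 0.126 and 0.155 FPKM in control livers (13, 9 and 11 fragments) against 2.34, 2.02 and 1.54 FPKM in knockouts (164, 139 and 112 fragments). The groups lay far apart, with a log2 fold change of 1.35 ± 0.13 (limma, adjusted p = 0.00546). Cx3cr1 kept its call without control 1, 2 or 3 (limma, adjusted p = 0.0214, 0.0304 and 0.0294). With any knockout left out its mean fell under 1 FPKM, so Cx3cr1 was not tested in those fits. Its ligand Cx3cl1, fractalkine, is made as a membrane-bound protein. It was at 0.171, 0.193 and 0.146 FPKM in control livers against 0.474, 0.865 and 0.425 FPKM in knockouts, again without overlap. Cx3cl1 was not called by limma with the filter at 0.1 FPKM (adjusted p = 0.0666) and was called by voom on the recovered fragments (adjusted p = 0.0249).

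The macrophage chemokines Ccl6 and Ccl9 were the most abundant ligands by FPKM after Cxcl12. Ccl6, a mouse chemokine that acts through Ccr1, was at 8.32, 7.28 and 5.67 FPKM in control livers against 22.8, 27.6 and 12.8 FPKM in knockouts. The groups did not overlap and knockout 3 lay nearest to the controls (1.40 ± 0.27, limma, adjusted p = 0.0237). Ccl9, its neighbour and likewise a Ccr1 ligand, was at 8.88, 9.91 and 6.88 FPKM in control livers against 19.8, 18.5 and 15.1 FPKM in knockouts. It rose by 0.98 ± 0.15 (limma, adjusted p = 0.0138), again without overlap. Ccl5, a ligand of Ccr1 and Ccr3 made by T and NK cells among others, was at 1.15, 0.329 and 0.928 FPKM in control livers against 2.74, 3.06 and 1.55 FPKM in knockouts. It rose by 0.94 ± 0.24, a 3.06-fold difference of mean FPKM, with an adjusted p close to the threshold (limma, adjusted p = 0.0438), and it was not called after median-ratio rescaling (adjusted p = 0.0507), with quantile normalization (adjusted p = 0.0674) or with a pseudocount of 0.1 (adjusted p = 0.0550). Ccl4, a macrophage inflammatory protein, was at 1.02, 0.287 and 0 FPKM in control livers against 1.56, 1.39 and 1.12 FPKM in knockouts, a narrow separation that limma with the filter at 0.1 FPKM did not call (adjusted p = 0.0965). Ccl3, its neighbour, was at 0.639, 0.660 and 0.166 FPKM in control livers against 2.93, 0.597 and 0.565 FPKM in knockouts, so that the difference of its means rests on knockout 1. Without knockout 3, the lowest knockout for Ccl5, Ccl6 and Ccl9, all 3 were called. Ccl5 and Ccl6 lost their calls when any 1 of the other 5 mice was left out (adjusted p from 0.0652 to 0.134 and from 0.0518 to 0.0800), and Ccl9 did not pass without knockout 2 (adjusted p = 0.0566).

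The receptor Ccr1, which binds Ccl5, Ccl6 and Ccl9, had higher values in knockouts. Ccr1 had 0, 2 and 1 fragments in controls and 24, 29 and 29 in knockouts. This is a ratio of 27.8 with an exact 95% interval of 9.19 to 138 for counting error, the highest ratio of fragments among the 45 genes averaging 0.1 FPKM or more. Ccr1 was not tested at the filter of 1 FPKM, and it was called with the filter at 0.1 FPKM (limma, adjusted p = 0.00936) and by voom (adjusted p = 0.00519), having reached both filters only through its knockout values. Ccl3 and Ccl4 are close paralogs, as are the members of the Cxcl1 group, and how the authors' counting split fragments shared between them is uncertain.

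Cxcl12, the stromal chemokine that retains leukocytes through Cxcr4, was the 1 gene of the 15 that fell. It was at 48.9, 46.4 and 45.1 FPKM in control livers against 31.5, 28.6 and 30.7 FPKM in knockouts. Spread within each group was small and the groups did not overlap, at a log2 fold change of -0.62 ± 0.07 (limma, adjusted p = 0.00777), a 1.55-fold difference of mean FPKM. The call held with each mouse left out. In controls Cxcl12 made up 54.0% to 61.1% of the summed FPKM of all ligands, and in knockouts 23.2% to 30.0%. Without Cxcl12, the ligands summed to 28.7 to 39.7 FPKM in control livers against 71.6 to 97.6 FPKM in knockouts. All receptors together summed to 5.53 to 6.53 FPKM in control livers against 11.6 to 18.6 FPKM. The receptor of Cxcl12, Cxcr4, went the other way, from 0.744, 1.33 and 1.20 FPKM in controls to 3.27, 4.88 and 2.05 FPKM in knockouts. The groups did not overlap (1.03 ± 0.24, limma, adjusted p = 0.0359, 3.12-fold). Cxcr4 lost its call when any 1 mouse other than knockout 3 was left out (adjusted p from 0.0861 to 0.0940) or with quantile normalization (adjusted p = 0.0569). The atypical receptor Ackr3, which binds and removes Cxcl12, was at 0.164, 0.151 and 0.133 FPKM in control livers against 0.249, 0.390 and 0.886 FPKM in knockouts. Its groups did not overlap, with knockout 3 the highest, and neither limma with the filter at 0.1 FPKM (adjusted p = 0.164) nor voom (adjusted p = 0.0816) called it. Endothelial and stellate cells are known sources of Cxcl12 in liver. Markers of sinusoidal endothelium summed to 72.4 to 81.4 FPKM in control livers against 89.6 to 117 FPKM in knockouts, with 3 of 9 called higher (Stab1 0.74 ± 0.13, Stab2 0.67 ± 0.14 and Pecam1 0.49 ± 0.10) and 0 lower. Stellate markers summed to 52.8 to 59.9 and 102 to 132 FPKM, with 7 of 10 called higher (5 after median-ratio rescaling), the collagen genes Col1a1 (2.80 ± 0.31) and Col3a1 (2.69 ± 0.23) the most. Both counts stand against 13.9% of all tested genes that rose and 2.61% that fell (7.57% and 6.7% after rescaling). Both marker sums were higher in every knockout, where Cxcl12 was lower, and their part in its values was not tested.

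**Figure D3:**
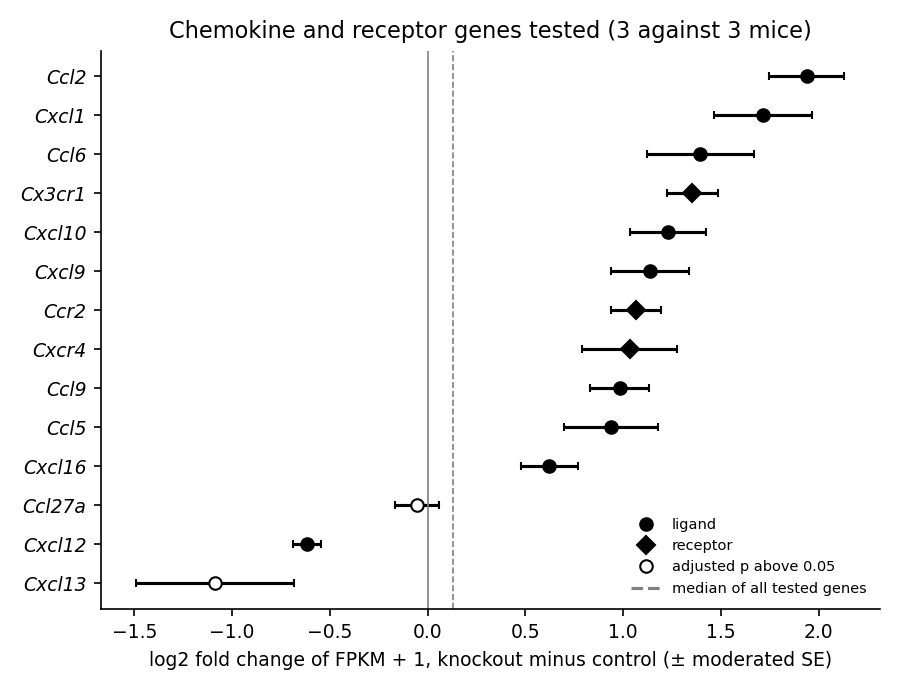
Log2 fold change of FPKM + 1, knockout minus control, ± the moderated standard error, for 14 chemokine and receptor genes tested (3 against 3 mice). Filled symbols passed an adjusted p of 0.05, and the dashed line is the median of all tested genes, 0.13. Of the filled symbols, Cxcl12 at -0.62 is the 1 below zero, and the others lie between 0.62 and 1.94.

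Cxcl13, a B cell chemokine that acts through Cxcr5, was at 2.23, 5.49 and 0.941 FPKM in control livers against 0.447, 0.625 and 0.806 FPKM in knockouts. All knockouts lay below all controls, but the controls spread widely, and the difference of -1.09 ± 0.40, with mean FPKM 4.62-fold lower in knockouts, did not pass (limma, adjusted p = 0.106). It passed with array weights (adjusted p = 0.0489). Cxcr5 was at 0.113 ± 0.0518 and 0.185 ± 0.0114 FPKM in controls and knockouts. B cell markers ranged more among knockouts (8.13 to 137 FPKM in sum, of which Ighm took up to 121 FPKM in knockout 2) than among controls (11.2 to 24.3 FPKM), and 0 of 2 tested were called. Cxcl16, a membrane-bound ligand and scavenger receptor made by macrophages and endothelium, rose from 3.58, 2.68 and 2.70 FPKM to 6.25, 4.91 and 4.30 FPKM. The groups did not overlap (0.62 ± 0.15, limma, adjusted p = 0.0356). Cxcl16 lost its call when any 1 mouse other than knockout 3 was left out (adjusted p from 0.0502 to 0.109) or with the filter at 0.1 FPKM (adjusted p = 0.0501). Its receptor Cxcr6 did not separate, at 0.389 ± 0.0266 and 0.442 ± 0.095 FPKM. Cxcl14, a homeostatic chemokine, was at 0.502, 0.380 and 0.314 FPKM in control livers against 1.26, 1.502 and 0.846 FPKM in knockouts, without overlap. It was called with the filter at 0.1 FPKM (limma, adjusted p = 0.0366) and by voom (adjusted p = 0.0247).

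**Figure D4:**
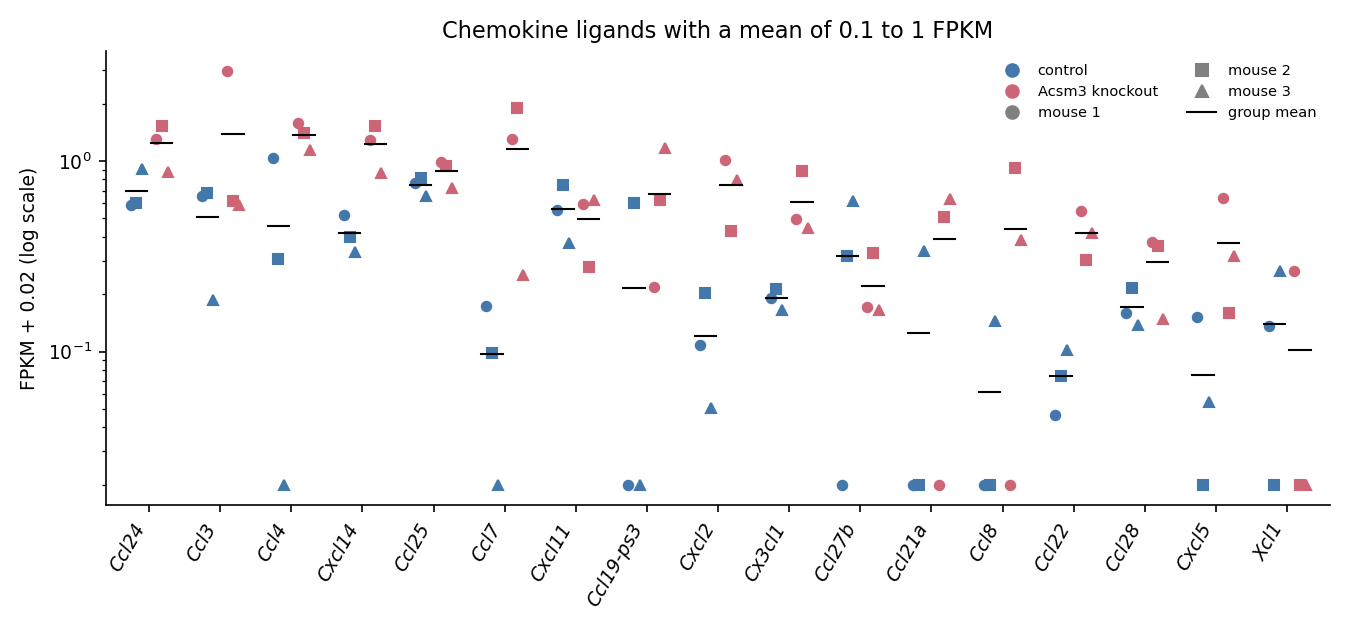
FPKM + 0.02 in each mouse (log axis) of the 17 chemokine ligands with a mean of 0.1 to 1 FPKM, with controls in blue, knockouts in red, marker shapes for the mouse numbers and a line at each group mean (n = 3); values of 0 lie at 0.02. In 7 of them every knockout is above every control (23.3% of all genes at this level), among them Ccl22 and Cxcl2, while Cxcl11 and Ccl25 overlap.

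The remaining ligands and receptors were low. Ccl22, made by dendritic cells and macrophages, had 1, 2 and 3 fragments in controls and 19, 10 and 15 in knockouts. It was called by limma with the filter at 0.1 FPKM (adjusted p = 0.0401), which it reached only through its knockout values. Ccl17, which shares the receptor Ccr4 with it, had at most 1 fragment in any liver, and Ccr4 at most 3. Ccl24, an eosinophil chemokine, was at 0.679 ± 0.178 and 1.22 ± 0.333 FPKM in controls and knockouts, with 0.885 FPKM in control 3 just above 0.859 FPKM in knockout 3. Its receptor Ccr3 had 0 to 8 fragments. Ccl27a, a skin chemokine that acts through Ccr10, was tested and did not pass (-0.05 ± 0.11, limma, adjusted p = 0.773), at 1.90, 1.62 and 1.74 FPKM in control livers against 1.998, 1.59 and 1.40 FPKM in knockouts. Ccl25, at 0.726 ± 0.0846 and 0.864 ± 0.139 FPKM, and Ccl28, at 0.151 ± 0.04 and 0.274 ± 0.127 FPKM, overlapped between groups (SD, n = 3). Ccr6, Ccr9 and Ccr10, the receptors of Ccl20, Ccl25 and Ccl28, had means over the 6 mice of 0.157, 0.0751 and 0.117 FPKM. Ccr7, which guides dendritic cells and T cells to lymph nodes, was at 0.255 to 0.340 FPKM in control livers against 0.344 to 0.892 FPKM in knockouts, groups that only just separated (limma with the filter at 0.1 FPKM, adjusted p = 0.294). Its ligands Ccl19, Ccl21a and Ccl21b had at most 4 fragments in any liver, and Ccl27 was listed at 0 in all 6. Ccl21a, Ccl21b and Ccl27 are placed on unlocalized scaffolds in this table and have near-identical copies, so their values are uncertain.

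Among the atypical receptors, Ackr1, which binds many chemokines on venular endothelium and red cells, was at 0.305, 0.270 and 0.272 FPKM in control livers against 1.19, 0.651 and 0.660 FPKM in knockouts. Its groups did not overlap. It was called by voom (adjusted p = 0.0402) and not by limma with the filter at 0.1 FPKM (adjusted p = 0.0554). Ackr1 shares 361 of its 1405 exon bases with Cadm3 on the same strand. Ackr2, which scavenges inflammatory CC chemokines, overlapped between groups at 0.600 ± 0.132 and 0.870 ± 0.375 FPKM. Ackr4, which scavenges Ccl19, Ccl21 and Ccl25, overlapped as well, at 0.579 ± 0.0688 and 0.423 ± 0.109 FPKM (SD, n = 3).

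Many of these genes lie in clusters (GRCm38), which the choice by symbol did not use. The CC cluster on chromosome 11, from 82035571 to 83664683, holds 11 of them in the order Ccl2, Ccl7, Ccl11, Ccl12, Ccl8, Ccl1, Ccl5, Ccl9, Ccl6, Ccl3 and Ccl4. Of these, 4 were tested and 4 rose, 6 had groups that separated upwards, and Ccl11, Ccl12 and Ccl1 had at most 2 fragments in any liver. Over all genes, 13.9% of those tested rose, and 33.9% of those averaging 1 FPKM or more and 23.3% of those of 0.1 to 1 FPKM separated upwards. Ccl2 (ENSMUSG00000035385) spans 82035571 to 82037453 on the plus strand at one end of it. The CXC cluster on chromosome 5, from 90759360 to 92365485, holds 7 genes, of which 3 were tested and rose and 5 separated upwards, and Cxcl1 (ENSMUSG00000029380) spans 90891241 to 90893115 on its plus strand. The receptor cluster on chromosome 9 holds Cx3cr1 and Ccr2, which rose, and Ccr1. Within it Cxcr6, Ccr9, Ccr8, Ccr1l1, Ccr3 and Ackr2 overlapped between groups, and Cx3cr1 (ENSMUSG00000052336) spans 119901616 to 120069879 on the minus strand at its edge. Cxcl12 (ENSMUSG00000061353) on chromosome 6, at 117168535 to 117181367, and Cxcl13 on chromosome 5, at 95956951 to 95961068, which were lower in every knockout, lie outside these clusters.

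Of genes of chemokine signalling inside the cell, 10 of 33 tested rose and 0 fell, where 13.9% of all tested genes rose and 2.61% fell (median log2 fold change 0.43, against 0.13 for all tested genes; 7 and 0 after median-ratio rescaling, against 7.57% and 6.7%). Among those that rose were Rgs2 (1.17 ± 0.21), a regulator that shortens G protein signals, and the kinase Prkcd (0.68 ± 0.17). Of leukocyte integrins and adhesion genes, 7 of 13 tested rose and 0 fell against the same 13.9% and 2.61% (median 0.63; 6 and 0 after rescaling), led by Itgax (1.49 ± 0.22) and Itgb2 (1.22 ± 0.27), subunits of myeloid integrins, and the endothelial ligand Icam1 (1.02 ± 0.19). Of 13 tested chemokine-like genes outside the symbol rule, 3 rose and 0 fell, a share not far from the 13.9% over all tested genes (median 0.30; 2 higher and 1 lower after rescaling). They were the chemokine-cleaving protease Mmp12 (2.60 ± 0.34), the Mif receptor and invariant chain Cd74 (1.91 ± 0.26) and the chemerin gene Rarres2 (0.38 ± 0.08). Adjusted p for these named genes ran from 0.0106 to 0.0416 (limma). Of the genes called in these lists, Grk5, Itgax and Mmp12 had control means under 1 FPKM. They reached the filter only through their knockout values, so the counts describe the genes tested.

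Myeloid markers moved with the chemokine genes, and their counts stand against 13.9% of all tested genes that rose and 2.61% that fell. Of macrophage and monocyte markers other than Ccr2 and Cx3cr1, 7 of 10 tested rose and 0 fell (5 and 0 after median-ratio rescaling), with a summed level of 136 to 195 FPKM in control livers against 190 to 372 FPKM in knockouts. Cd68 (1.35 ± 0.29) and Lyz2 (1.28 ± 0.32), a lysosomal membrane protein and lysozyme, rose the most. All 8 markers of lipid-associated macrophages rose, also after rescaling, with sums of 26.6 to 30.2 and 74.1 to 150 FPKM. Gpnmb (3.19 ± 0.34), Mmp12 and the lectin gene Lgals3 (2.47 ± 0.30) rose the most among them. Gpnmb, Mmp12, Trem2 and Fabp5 had control means under 1 FPKM. They reached the filter only through their knockout values, so the count describes the genes tested. Of 8 Kupffer cell markers, 2 rose (C6 by 1.43 ± 0.18 and Cd5l by 1.19 ± 0.28) and 3 fell, Cd163 the most (-1.42 ± 0.33), and after rescaling 2 rose and 4 fell. The integrin gene Itgam, which marks monocytes, macrophages and neutrophils, was listed at 0 in 5 libraries and at 0.0127 FPKM in control 1. Of dendritic cell markers 2 of 3 tested rose (Itgax and Bst2), of platelet markers 0 of 1, and of cholangiocyte markers 1 of 1 (Spp1, which is also in the list of lipid-associated macrophages). Itgax, at 0.278 to 0.368 FPKM in controls, reached the filter only through its knockout values. Of hepatocyte markers 1 rose (Hnf4a) and 2 fell (Alb and Ttr) among 9, with 0 and 2 after rescaling, the 1 that rose being near the share over all genes. Hepatocyte markers summed to 41306 to 49703 FPKM in control livers against 30958 to 33979 FPKM in knockouts. In 5 of the 9 every knockout lay below every control, and in 1 above. Among all genes averaging 1 FPKM or more these shares were 7.91% and 33.9%. Across the 12 chemokine and receptor genes that rose, knockout 3 was the lowest knockout in 9 and the highest in 0, and control 3 was the lowest control in 6. Knockout 3 also had the lowest sum of macrophage and of lipid-associated macrophage markers among knockouts. The part of these cells in the chemokine values was not tested.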

How the data were processed

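The deposited values are FPKM, computed by the authors and given in 1 table for 28450 genes in 6 livers. Per the submitters' processing notes, StringTie 1.3.0, HISAT2 2.0.4 and Bowtie2 2.2.6 were used with GRCm38. The sources used here do not give their roles or settings. Groups came from the genotype labels and columns from the sample titles. Values were transformed to log2(FPKM + 1), and genes averaging 1 FPKM or more across mice entered limma 3.58.1 (R 4.3.3, linear model, empirical Bayes with a trend), with Benjamini-Hochberg adjustment over all 10996 genes and a threshold of 0.05. The procedure was tested on simulated data.

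FPKM times exon length (GENCODE M21) gave whole fragments within 0.1 for 98.0% to 98.1% of values under 20 fragments. The recovered fragments sum to 102.866% to 103.38% of the implied totals, so the totals are estimates. Voom on these fragments (mean of at least 10), an alternative chosen after seeing the data, called 2657 genes. No batch is given in the labels. The study's design counts 3 mice in each group. The p-values test the difference between the groups against the spread of mice within them, which limma moderates with that of the other genes.

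The genes and marker lists were chosen with earlier results of these data known. Chemokine and receptor genes averaging 1 FPKM or more were named, apart from an item that is not reported here, lower ones by group values or counts, and of each list up to 3 called genes with the largest change. Chosen after seeing values were defining markers at or near 0, S100a9, Cd3e, Cd4, Cd28, Il7r, Lat, Trem2, Fabp5 and Grk5, and the T cell sum without Zap70. Alternatives covered the pseudocount, the filter, rescaling, the variance model, weights, a replicate block and each mouse left out. Promoter sequences came from RefSeq for 44 of the 61 genes.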

Additional observations from a re-analysis of the deposited data

How the results depend on the processing

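The 13 chemokine and receptor genes called became 4 with the filter at 5 FPKM, which tests fewer genes, and numbered 9 to 18 under the other alternatives that kept all 6 mice. With 1 mouse left out they numbered 5 to 12, the highest without knockout 3. Over all genes, 1819 calls became 650 with no filter, 1108 with the filter at 5 FPKM and 3279 with array weights, and 287 to 2250 with 1 mouse left out, again the highest without knockout 3. The cause was not tested. Of all genes called, 1532 were higher and 287 lower, against 830 and 735 after median-ratio rescaling and 752 and 603 with quantile normalization. With no filter, Cxcl16 (adjusted p = 0.0845), Cxcl9 (0.0525), Ccl5 (0.105), Ccl6 (0.0626) and Cxcr4 (0.0885) were not called by limma. No called chemokine or receptor gene changed direction under any alternative run. With the filter at 0.1 FPKM, Ccl5 was not called (limma, adjusted p = 0.0583). With the mouse number as a replicate block 2018 genes and 12 chemokine and receptor genes were called, Ccl5 being lost (limma, adjusted p = 0.0544). Mice of the same number had correlated deviations of 0.111, 0.0918 and 0.187, and each mouse correlated best with its own number, a hint from the data and not the design, so the numbers were not taken to pair mice. Depth limited the lowest genes: 16 of the 61 had under 10 fragments summed over the 6 livers, and a difference in them was not detectable at this depth.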
